A study of Homo sapiens with 9 samples.

Results

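The genes described are FAS, TNFSF10, TNFRSF10A, TNFRSF10B, TNFRSF1A, CASP8, CASP1, CASP4, MLKL and XAF1, which are 10 of the 60617 genes in the deposited tables and were chosen by symbol as the death receptors, the ligand TRAIL and the caspases and effectors around them. They were measured by RNA sequencing in PC-3, an established human prostate cancer cell line grown in RPMI medium. The 9 libraries were 3 controls given vehicle (Ctrl), 3 of cells given 1 µM decitabine (Dec) and 3 of cells given 1 µM decitabine with 200 µM S-adenosylmethionine (Dec_Sam, the combination treatment), all after 5 days. Decitabine is a cytidine analog that traps DNA methyltransferases and lowers DNA methylation, and S-adenosylmethionine (SAM) is the methyl donor of those enzymes. Every group is the same cell line, the labels do not say whether the replicates were separate cultures, and SAM given alone was not analysed here, so the effect of SAM was measured only on top of decitabine.

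Death receptors are membrane proteins of the TNF receptor family with an intracellular death domain. When TRAIL (encoded by TNFSF10) binds TRAIL-R1 or TRAIL-R2 (TNFRSF10A and TNFRSF10B), or Fas ligand binds Fas, the adaptor FADD recruits caspase-8, which starts apoptosis unless the decoy-like protein c-FLIP (CFLAR) blocks it. TNF receptor 1 (TNFRSF1A) first signals through RIPK1 to NF-kB and survival, and where caspase-8 is blocked, RIPK3 phosphorylates MLKL, which permeabilises the membrane in necroptosis. Caspase-1 and caspase-4 are the inflammatory caspases, which cleave gasdermin D in pyroptosis, and XAF1 is an interferon-inducible antagonist of the apoptosis inhibitor XIAP.

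All 10 genes were counted in libraries of between 21934307 and 22489684 estimated counts, and all 10 passed the filter on low counts that left 18532 genes to test. Values are given as counts, or as CPM, the counts over the TMM-scaled library size. Of the markers of the labelled cell type, the keratin gene KRT18 was at 293 to 445 CPM in the 9 libraries, while the prostate gene KLK3 had no count. The summed level of 6 leukocyte markers was 0.447 to 0.6003 CPM in Ctrl (CD3E among those at 0), 1.69 to 2.40 CPM in Dec and 1.54 to 2.04 CPM in Dec_Sam. That of 4 endothelial markers was 25.9 to 28.0, 41.5 to 60.9 and 50.9 to 59.3 CPM. The summed level of 5 fibroblast markers, all 5 of them called up in both treatments, was 4.49 to 6.50, 92.7 to 136 and 82.4 to 109 CPM in the same order. Their part in the results below was not tested. One combination library, Dec_Sam replicate 3, stood apart: the summed level of 30 interferon-stimulated genes was 2250 and 2500 CPM in Dec_Sam replicates 1 and 2 and 5761 CPM in replicate 3, beside 1111 to 1286 CPM in Ctrl and 12117 to 13411 CPM in Dec. Where leaving it out ended or gave a call or moved a value by over 1.5 times on the fold scale, the value without it is given as well.

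Promoter windows of 300 bases from RefSeq (GRCh38.p14) were at hand for 7 of the 10 genes, in 12 windows. Of these, 4 are printed 5′ to 3′ as the bases upstream of the annotated exons, because they belong to the ligand and the antagonist with the largest relative increases among the genes with a window, to a caspase that also increased and to a receptor that decreased. Capitals mark CpG dinucleotides, the sites of DNA methylation. The TNFSF10 sequence is at chr3:172523476-172523680 on the minus strand, that of XAF1 at chr17:6755197-6755446 on the plus strand, that of CASP8 at chr2:201233213-201233442 on the plus strand and that of TNFRSF1A at chr12:6342115-6342326 on the minus strand.
TNFSF10: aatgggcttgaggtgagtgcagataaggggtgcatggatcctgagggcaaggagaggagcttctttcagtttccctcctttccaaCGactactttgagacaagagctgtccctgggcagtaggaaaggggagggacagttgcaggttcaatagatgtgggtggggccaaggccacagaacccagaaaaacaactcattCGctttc
XAF1: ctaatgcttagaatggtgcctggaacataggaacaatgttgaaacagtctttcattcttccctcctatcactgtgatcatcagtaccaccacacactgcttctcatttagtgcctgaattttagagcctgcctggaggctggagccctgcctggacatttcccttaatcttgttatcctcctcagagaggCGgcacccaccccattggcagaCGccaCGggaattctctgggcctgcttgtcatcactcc
CASP8: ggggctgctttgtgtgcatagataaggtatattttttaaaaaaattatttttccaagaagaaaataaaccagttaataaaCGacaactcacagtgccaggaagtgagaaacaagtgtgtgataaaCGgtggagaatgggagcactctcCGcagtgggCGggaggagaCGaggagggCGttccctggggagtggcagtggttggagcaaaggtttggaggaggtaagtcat
TNFRSF1A: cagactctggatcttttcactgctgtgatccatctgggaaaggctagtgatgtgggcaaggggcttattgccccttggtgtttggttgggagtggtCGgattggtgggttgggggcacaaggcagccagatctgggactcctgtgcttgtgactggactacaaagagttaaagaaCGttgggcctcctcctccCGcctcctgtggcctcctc

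In the whole window of 300 bases, which runs from 250 bases before to 50 bases after the start, TNFSF10 held 3 CpG dinucleotides, CASP4 held 3, the first XAF1 window 3 and TNFRSF1A 4, against a median of 14 over all 35116 windows. The other windows held 5 to 22 CpG dinucleotides, with the highest number in FAS. Windows poor in CpG were thus found both for genes that increased and for one that decreased. The core of the interferon-stimulated response element was searched as TTTC, any 2 bases and TTTC, and the gamma-activated site as TTCNNNGAA, each on both strands, and no match of one overlapped one of the other. TNFSF10 held 1 match of the first, TTTCAGTTTC, between 187 and 178 bases before the start, and 3.57% of all windows held such a match. The first CASP8 window held a match of the first motif across its start, TTTCTGTTTC, and 1 match of the second, TTCCAAGAA, between 200 and 192 bases before the start, a motif found in 7.66% of all windows. The windows of FAS, TNFRSF1A, CASP4, MLKL and XAF1 held neither motif as spelled here.

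The basal order of the genes was set by CPM per kilobase of summed exon length, with n = 3 controls. TNFRSF1A (24.7 ± 0.83, SD) and TNFRSF10B (22.8 ± 1.88) were the highest, and their ranges overlapped. TNFRSF10A (11.01 ± 0.92), CASP8 (9.12 ± 0.35), MLKL (5.20 ± 0.36) and CASP4 (3.60 ± 0.079) followed, each without overlap with its neighbour. FAS (0.202 ± 0.018) and XAF1 (0.198 ± 0.065) overlapped, and TNFSF10 (0.0673 ± 0.030) and CASP1 (0.0125 CPM per kilobase) were the lowest. The annotated exons of FAS add up to 29313 bases, against 3696 for its canonical transcript. Per kilobase of canonical transcript FAS was at 1.60 ± 0.14 and XAF1 at 0.383 ± 0.13, and the ranges of TNFRSF10A (11.98 ± 1.002) and MLKL (11.96 ± 0.82) then overlapped. By that length CASP8 (24.8 ± 0.94) and CASP4 (18.5 ± 0.40) lay above TNFRSF10A and MLKL. Untreated PC-3 cells therefore had TNFRSF1A, TNFRSF10B, TNFRSF10A, CASP8, MLKL and CASP4 at measurable levels, and FAS and XAF1 at lower ones. The ligand and caspase-1 were at or near single counts.

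With decitabine, 6 of the 10 genes were upregulated and 2 were downregulated relative to the controls. The test was edgeR's quasi-likelihood test with Benjamini-Hochberg adjustment over all 18532 genes and a threshold of 0.05. Over all genes tested 36.3% were called up and 32.5% down, 68.8% in all, so calls were common. The split of these calls, 6729 up and 6030 down, was 8849 and 3746 with library size as the only scaling, and in the combination 6647 and 5799 became 8695 and 3857. The median log2 fold change of the 10 genes was 0.96, against 0.03 over all genes tested. The libraries of the groups did not overlap for 8 genes, 6 higher and 2 lower under decitabine, where 72.9% of all genes (38.1% higher and 34.8% lower) did not. With the combination treatment 4 genes were upregulated and 2 downregulated, where 35.9% and 31.3% of all genes were called, 67.2% in all, and the median was 0.165 against 0.05. The same 6 genes did not overlap the controls, against 71.6% of all genes (38.0% higher and 33.6% lower). Between the combination treatment and decitabine 1 gene was higher and 5 were lower, where 7.67% and 8.02% of all genes were called, 15.7% in all, and the median was -0.63 against 0.00. Here 7 genes did not overlap, 1 higher and 6 lower, against 34.0% of all genes (17.2% higher and 16.8% lower). The first comparisons share the controls, and the comparison between the treatments shares its libraries with both.

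**Figure D1:**
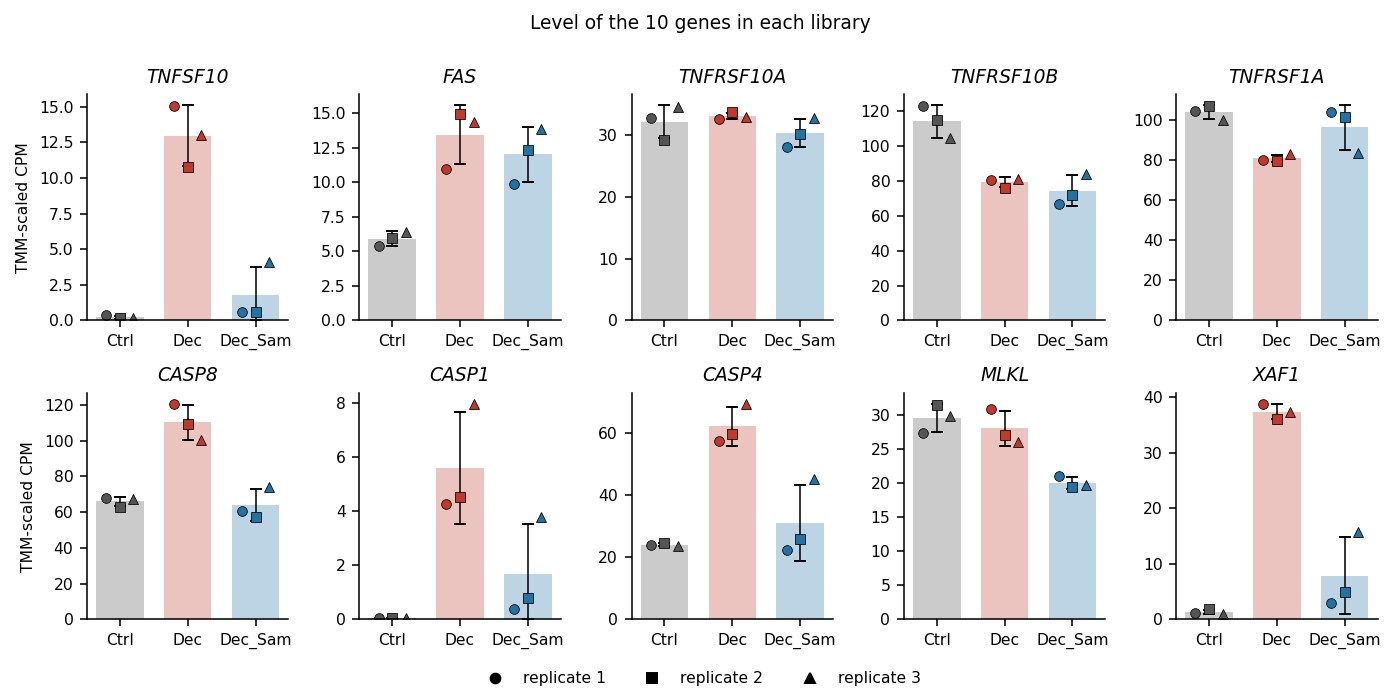
Level of each of the 10 genes in TMM-scaled CPM on linear axes that start at 0, by group. Bars are means of 3 libraries, error bars are 1 SD (not drawn below 0), and circles, squares and triangles are replicates 1, 2 and 3. TNFSF10, CASP1 and XAF1 are near 0 in the controls, high with decitabine and low in Dec_Sam replicates 1 and 2, with replicate 3 above them.

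TNFSF10 (ENSG00000121858, chromosome 3 from 172505508 to 172523475 on the minus strand), the gene of the ligand TRAIL, had 7, 3 and 4 counts in the controls. With decitabine it had 357, 256 and 308 counts, and with the combination treatment 14, 13 and 96. In CPM these were 0.348, 0.150 and 0.197, then 15.1, 10.8 and 13.04, then 0.610, 0.572 and 4.09. The groups did not overlap in any comparison. The log2 fold change was 5.77 with decitabine (SE 0.88, adjusted p = 0.00073), a 54.7-fold increase. With the combination treatment it was 2.90 (SE 1.08, adjusted p = 0.046), and between the treatments -2.87 (SE 0.63, adjusted p = 0.026), so TRAIL mRNA was 7.32-fold lower in Dec_Sam than in Dec. In bulk RNA, expression in fewer cells and less RNA per cell cannot be told apart.

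The size of the TNFSF10 difference rested on Dec_Sam replicate 3. Without it, the log2 fold change of the combination treatment against the controls was 1.33 (adjusted p = 0.015) and that between the treatments -4.44 (adjusted p = 2.6e-08). The call against the controls was lost when any control or decitabine library was left out (adjusted p = 0.061 to 0.12). That between the treatments was lost without each of the decitabine libraries, Dec_Sam replicate 1 or Dec_Sam replicate 2 (-2.46 to -2.99, adjusted p = 0.051 to 0.075). The increase with decitabine was called in all 9 fits.

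Of the other ligands on the fixed list, 2 were tested. TNFSF15 (TL1A, the ligand of death receptor 3) rose from 4 counts over the Ctrl libraries to 65 over Dec (log2 fold change 3.68, SE 0.74, adjusted p = 0.0005) and to 39 over Dec_Sam (2.98, SE 0.80, adjusted p = 0.0044). Without Ctrl replicate 2 these values were 4.92 and 4.22, and without Dec replicate 3 the first was 3.05. TNFSF12 (TWEAK), whose receptor TNFRSF12A has no death domain, fell by 1.79 and by 1.65 on the log2 scale (adjusted p = 2.6e-07 and 5.4e-07). FASLG, the gene of Fas ligand, had 0 to 4 counts in every library, and TNF had no count in the controls, 26 over the decitabine libraries and 12 over the combination libraries. Neither passed the filter on low counts, so the ligands of FAS and TNFRSF1A were not tested.

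The TRAIL receptors did not follow the ligand. TNFRSF10A (ENSG00000104689, chromosome 8 from 23190452 to 23225102), encoding TRAIL-R1, was at 32.8, 29.3 and 34.6 CPM in the controls, at 32.7, 33.7 and 33.0 with decitabine and at 28.1, 30.3 and 32.8 with the combination treatment. The groups overlapped in all 3 comparisons and none was called. The log2 fold change was 0.04 with decitabine (95% interval -0.14 to 0.23), -0.09 with the combination treatment (-0.27 to 0.10) and -0.13 between the treatments (-0.31 to 0.06). TNFRSF10B (ENSG00000120889, chromosome 8 from 23020133 to 23069031), encoding TRAIL-R2, was at 123, 115 and 104 CPM in the controls, at 80.6, 76.0 and 81.2 in Dec and at 67.1, 72.0 and 84.1 in Dec_Sam. The treated groups lay below every control and overlapped each other. The log2 fold changes were -0.53 (SE 0.088, adjusted p = 0.0001) and -0.62 (SE 0.088, adjusted p = 2.5e-05), and that between the treatments was -0.09 (95% interval -0.28 to 0.10). Library size as the only scaling moved the median of all genes to 0.28 for Dec and 0.27 for Dec_Sam against Ctrl. Under it TNFRSF10A was called up with decitabine (0.29, adjusted p = 0.011), while TNFRSF10B kept its direction and its calls.

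The decoy receptors bind the ligands without a working death domain, and all 3 that were tested rose in both treatments. Over all genes tested 36.3% were called up with decitabine and 35.9% with the combination treatment. TNFRSF10D, which encodes TRAIL-R4 and lies beside the other TRAIL receptor genes on chromosome 8 from 23135588 to 23164027, had no count in the controls. It had 91, 66 and 104 counts with decitabine and 211, 200 and 167 with the combination treatment, at least 74.0-fold and at least 168-fold higher than the controls at a floor of 3 counts over the group. It was higher in Dec_Sam than in Dec (log2 fold change 1.18, SE 0.19, adjusted p = 0.0029), the opposite direction to TNFSF10, and every fit that left out 1 library kept this call. TNFRSF11B (osteoprotegerin) rose by a log2 fold change of 2.84 and 3.21 (adjusted p = 7.6e-07 and 2.1e-07). TNFRSF6B (decoy receptor 3, which binds Fas ligand) rose by 3.26 and 2.97 (adjusted p = 1.3e-06 and 2.7e-06). TNFRSF10C, the other decoy gene of this cluster, had 3 to 13 counts in every library and was not tested. The TRAIL receptor genes are related in sequence and the counts are estimates that can split reads between them, although TNFRSF10A, TNFRSF10B and TNFRSF10D were whole or nearly whole in most libraries.

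FAS (ENSG00000026103, chromosome 10 from 88953813 to 89029605 on the plus strand) rose in both treatments. It was at 5.36, 6.003 and 6.42 CPM in the controls, at 10.99, 15.0 and 14.4 with decitabine and at 9.88, 12.3 and 13.9 with the combination treatment. Every treated library lay above every control, and the treated groups overlapped. The log2 fold change was 1.18 with decitabine (SE 0.16, adjusted p = 1.1e-05) and 1.02 with the combination treatment (SE 0.16, adjusted p = 4.8e-05). Between the treatments it was -0.16 (95% interval -0.47 to 0.15, adjusted p = 0.49). Annotated exons of FAS overlap those of ACTA2 on the other strand and of STAMBPL1. Reads could be split between such genes, but the deposited counts of FAS were whole or nearly whole in every library.

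TNFRSF1A (ENSG00000067182, chromosome 12 from 6328757 to 6342114), the main receptor of TNF, was the member nearest to the reverse pattern. The controls were at 104, 107 and 100.2 CPM, the decitabine libraries at 79.9, 79.6 and 83.0 and the combination libraries at 104, 101 and 83.7. Decitabine lay below every control (log2 fold change -0.36, SE 0.081, adjusted p = 0.0011). Dec_Sam replicates 1 and 2 lay within the range of the controls and replicate 3 just above decitabine, which gave a log2 fold change of -0.11 against the controls (95% interval -0.28 to 0.07) and 0.25 against decitabine (SE 0.081, adjusted p = 0.048). That last call was lost when any library but Dec_Sam replicate 3 was left out (0.19 to 0.27, adjusted p = 0.057 to 0.19), and without Dec_Sam replicate 3 it was 0.35 (adjusted p = 0.0028). With library size as the only scaling, the decrease with decitabine was -0.11 (adjusted p = 0.19).

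Other receptors on the list moved in both directions. Of its 10 genes, 9 were tested, counting FAS, TNFRSF10A, TNFRSF10B and TNFRSF1A. TNFRSF12A, the TWEAK receptor without a death domain, was among them and was called down in both treatments. Under decitabine 4 were called up and 4 down, against 36.3% and 32.5% of all genes tested. In the combination 4 were called up and 3 down, against 35.9% and 31.3%. Between the treatments 3 were called up and none down, against 7.67% and 8.02%. TNFRSF1B, the second TNF receptor, which has no death domain but signals with TNFRSF1A, rose from 1.40 to 1.88 CPM in Ctrl to 24.8 to 29.2 in Dec and 28.2 to 28.6 in Dec_Sam (log2 fold change 4.05 and 4.11, each adjusted p = 1.1e-11). NGFR, the p75 neurotrophin receptor, rose by 2.79 (adjusted p = 2.1e-05) and 3.97 (adjusted p = 6.8e-07) and was higher with the combination treatment by 1.17 (adjusted p = 0.012). That last call was lost without Dec replicate 2 (1.15, adjusted p = 0.063) or Dec_Sam replicate 2 (1.03, adjusted p = 0.064). TNFRSF25, death receptor 3, fell by 1.62 and 0.86 on the log2 scale and was higher in Dec_Sam than in Dec by 0.76 (adjusted p = 4.9e-07, 0.00014 and 0.0074).

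CASP8 (ENSG00000064012, chromosome 2 from 201233443 to 201361836 on the plus strand), the initiator caspase of the death receptors, rose with decitabine and was not called against the controls in the combination. The controls were at 67.7, 63.1 and 67.2 CPM, the decitabine libraries at 121, 109 and 101 and the combination libraries at 60.7, 57.2 and 73.9. Every decitabine library lay above all the others, and of the combination libraries, replicates 1 and 2 lay below every control and replicate 3 above every control. The log2 fold change was 0.74 with decitabine (SE 0.096, adjusted p = 8.8e-06) and -0.78 between the treatments (SE 0.095, adjusted p = 0.00041), and both were called in all 9 fits that left out 1 library. Against the controls, the combination treatment gave -0.05 (95% interval -0.25 to 0.16). Annotated exons of CASP8 overlap those of a long non-coding RNA gene on the same strand. The deposited counts of CASP8 had decimals in every library, such as 2852.3 in Dec replicate 1, and those of TNFRSF1A and XAF1 in most. Which genes shared these reads was not tested.

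Its neighbours on chromosome 2 are CASP10, the related initiator caspase (from 201182872 to 201229428), and CFLAR, the inhibitor c-FLIP (from 201116154 to 201176687). CASP10 rose with decitabine (log2 fold change 1.12, SE 0.28, adjusted p = 0.0043) and was lower with the combination treatment (-1.18, SE 0.27, adjusted p = 0.019). The latter call was lost without Dec replicate 1 (adjusted p = 0.056), Dec replicate 2 (0.059) or Dec_Sam replicate 2 (0.085), and without Dec_Sam replicate 3 the difference was -1.68 (adjusted p = 5.1e-06). CFLAR rose by 0.77 (SE 0.14, adjusted p = 0.0004), was at 0.23 with the combination treatment against the controls (adjusted p = 0.16) and fell by 0.53 between the treatments (SE 0.14, adjusted p = 0.025). Without Dec_Sam replicate 1 the value against the controls was called (0.355, adjusted p = 0.021), as it was with library size as the only scaling (0.46, adjusted p = 0.022), while without Dec_Sam replicate 3 it was 0.030 (adjusted p = 0.80). The difference between the treatments was lost without Dec replicate 2 or 3 or Dec_Sam replicate 1 or 2 (-0.40 to -0.53, adjusted p = 0.063 to 0.11). CASP8 and its inhibitor were thus called in the same direction in both of these comparisons.

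The list of the death signalling complex had 11 genes. Of these, 7 were called up and 3 down with decitabine, against 36.3% and 32.5% of all genes tested. With the combination treatment 2 were called up and 2 down, against 35.9% and 31.3%. Between the treatments 1 was called up and 5 down, against 7.67% and 8.02%. FADD, the adaptor, fell by 0.51 and 0.48 on the log2 scale in the treatments (adjusted p = 5e-05 and 9e-05). RIPK1, the kinase of TNF receptor signalling, rose by 0.35 with decitabine (adjusted p = 0.0042), fell with the combination treatment (-0.53, adjusted p = 0.0002) and was lower between them (-0.87, SE 0.094, adjusted p = 0.00031). BID, which links caspase-8 to mitochondria, fell with decitabine (-0.30, adjusted p = 0.0042, but -0.05 and adjusted p = 0.58 with library size as the only scaling) and was higher in Dec_Sam than in Dec (0.30, adjusted p = 0.021), a call lost without Dec replicate 1 or 2 or Dec_Sam replicate 1 or 2 (adjusted p = 0.074 to 0.09).

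**Figure D2:**
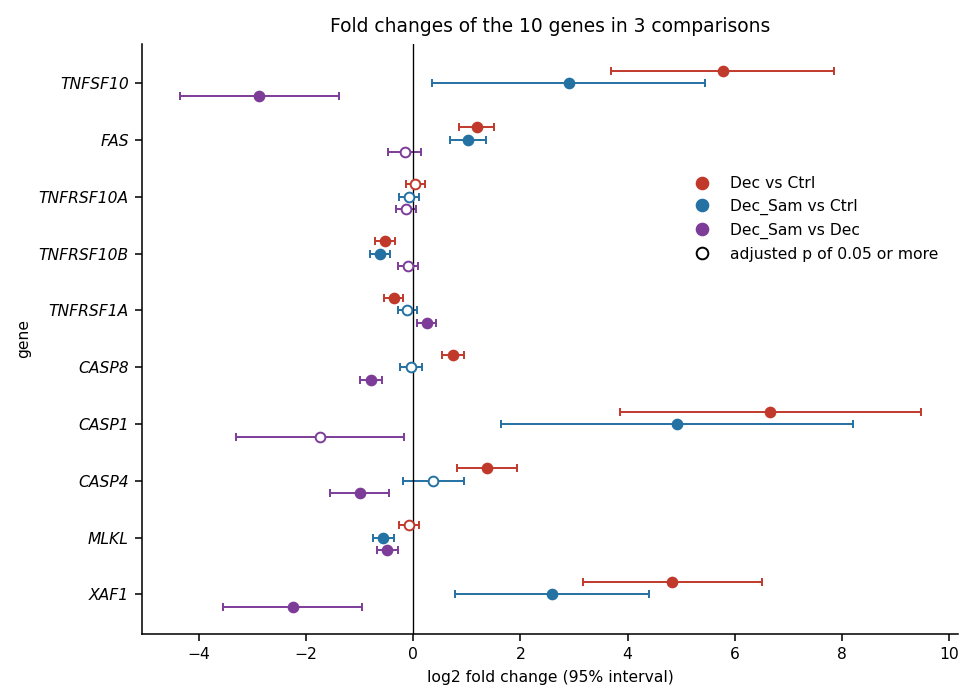
Log2 fold changes of the 10 genes with 95% intervals in the comparisons of decitabine with control (red), combination with control (blue) and combination with decitabine (purple). Filled points passed an adjusted p of 0.05 and open points did not, and the widest intervals are those of CASP1 and TNFSF10, the genes with the fewest counts in the controls.

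CASP1 (ENSG00000137752, chromosome 11 from 105025397 to 105035250 on the minus strand), the caspase that matures IL-1β and IL-18, had 1 count in each control. It had 101, 107 and 188 counts with decitabine and 9, 18 and 89 with the combination treatment. With 3 counts over the controls, the ratio of scaled counts was 112 with decitabine (95% counting interval 38.2 to 547) and 33.8 with the combination treatment (11.3 to 166). The fitted log2 fold changes were 6.66 (SE 1.20, adjusted p = 0.0016) and 4.92 (SE 1.40, adjusted p = 0.016). The call of the combination treatment was lost when any control was left out (adjusted p = 0.052 to 0.055). Between the treatments the groups did not overlap but the difference was not called (-1.74, SE 0.67, adjusted p = 0.13). Without Dec_Sam replicate 3, where CASP1 was at 3.79 CPM against 0.392 and 0.792 in replicates 1 and 2, it was -3.23 (adjusted p = 4.4e-05), and the combination treatment against the controls was 3.43 (adjusted p = 0.0011). The difference between the treatments was also called with DESeq2 (adjusted p = 0.017), with voom and limma (0.014) and with the replicate number as a block (-1.99, adjusted p = 0.0042).

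CARD16, which lies next to CASP1 and encodes a caspase-1 inhibitor with a near copy of its CARD domain, had 4 counts over the controls, 895 over the decitabine libraries and 445 over the combination libraries. Its log2 fold changes were 7.46 (SE 0.94, adjusted p = 0.00022) and 6.48 (SE 1.01, adjusted p = 0.00077), and -0.98 between the treatments (SE 0.47, adjusted p = 0.21). Without Dec_Sam replicate 3 the combination was at 5.78 against the controls (adjusted p = 2e-05). The difference between the treatments was -1.68 without Dec_Sam replicate 3 (adjusted p = 0.0045) and -1.07 with the replicate number as a block (adjusted p = 0.00088). The deposited counts of CASP1 and CARD16 had decimals, such as 100.963 and 206.037 in Dec replicate 1, and added up to whole numbers. So reads were shared out between them, and the value of either gene alone is uncertain. Together they had 2, 3 and 2 counts in the controls, 307, 357 and 627 with decitabine and 85, 122 and 354 with the combination treatment.

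CASP4 (ENSG00000196954, chromosome 11 from 104942866 to 104969366), the caspase that senses intracellular lipopolysaccharide, was the inflammatory caspase with a clear basal level. The controls were at 23.8, 24.6 and 23.5 CPM, the decitabine libraries at 57.5, 59.6 and 69.4 and the combination libraries at 22.2, 25.9 and 45.2. Dec_Sam replicates 1 and 2 lay at the controls and replicate 3 between the groups. The log2 fold change was 1.37 with decitabine (SE 0.24, adjusted p = 0.0011), 0.38 with the combination treatment (95% interval -0.19 to 0.94) and -0.999 between the treatments (SE 0.24, adjusted p = 0.029). The latter was lost without any decitabine library, Dec_Sam replicate 1 or Dec_Sam replicate 2 (-0.81 to -1.05, adjusted p = 0.053 to 0.10). Without Dec_Sam replicate 3 it was -1.37 (adjusted p = 4.9e-07) and the combination treatment against the controls 0.0017 (adjusted p = 0.99), while without Dec_Sam replicate 1 the latter was called (0.56, adjusted p = 0.042). CASP5, between CASP4 and CASP1 and close to CASP4 in sequence, had no count in the controls, 10 over the decitabine libraries and 7 over the combination libraries.

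Further along this cluster, CARD18 had no count in the controls and 61 and 73 over the treated groups, at least 17.3-fold and at least 21.2-fold higher. Of the 25 genes on the list of pyroptosis and the inflammasome, 20 were tested. Of these, 12 were called up and 4 down with decitabine, against 36.3% and 32.5% of all genes tested. With the combination treatment 10 were called up and 5 down, against 35.9% and 31.3%. Between the treatments none were called up and 7 down, against 7.67% and 8.02%. The adaptor PYCARD (ASC) had no count in the controls and 45 and 40 counts over the treated groups, at least 12.8-fold and at least 11.6-fold higher. AIM2, a sensor of cytosolic DNA, had 2 counts in the controls, 284 over the decitabine libraries and 50 over the combination libraries, ratios of 121 (95% counting interval 33.1 to 1002.5, adjusted p = 0.00086) and 21.8 (5.73 to 185, adjusted p = 0.034). The call in the combination was lost without any control or Dec_Sam replicate 3 (adjusted p = 0.058 to 0.10), its fitted log2 fold change of 4.23 being 2.67 without Dec_Sam replicate 3 and 7.03 without Ctrl replicate 1. Without Ctrl replicate 1, which held both control counts, the fitted value with decitabine went from 6.69 to 9.50. Between the treatments AIM2 was at -2.47 (SE 0.68, adjusted p = 0.044), a call lost without any library but Dec_Sam replicate 3 (adjusted p = 0.063 to 0.15), without which it was -4.02.

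Of the pore proteins, GSDMD and GSDME were called down in both treatments and GSDMB, named after its values were seen, was called up in both, while GSDMC was called up with decitabine and not in the combination (0.78, adjusted p = 0.28). GSDMD, the gasdermin that caspase-1 and caspase-4 cleave, fell with decitabine (-0.30, SE 0.090, adjusted p = 0.0077) and further with the combination treatment (-0.97, SE 0.091, adjusted p = 4.2e-07), with -0.67 between them (adjusted p = 0.00075). Its levels were 82.9 to 95.8 CPM in Ctrl, 70.2 to 76.4 in Dec and 40.4 to 52.0 in Dec_Sam, without overlap. GSDME, a related gasdermin, fell by 0.87 on the log2 scale with the combination treatment (adjusted p = 4.2e-07) and was lower than with decitabine (-0.67, adjusted p = 0.00041). With decitabine alone GSDME was at -0.20 (adjusted p = 0.035), a call lost without Ctrl replicate 2 or 3 or Dec replicate 2 or 3 (adjusted p = 0.053 to 0.097). With library size as the only scaling the decitabine values were -0.06 for GSDMD (adjusted p = 0.62) and 0.044 for GSDME (adjusted p = 0.64), so the direction of GSDME under decitabine turned. GSDMC rose with decitabine (2.29, SE 0.53, adjusted p = 0.0015), and by 2.99 without Ctrl replicate 2. NLRP1, an inflammasome sensor, rose by 2.64 and 2.90 (adjusted p = 7.8e-08 and 3e-08), and NAIP fell by 2.48 and 1.83 on the log2 scale (adjusted p = 1.3e-06 and 1.6e-05).

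MLKL (ENSG00000168404, chromosome 16 from 74671855 to 74700960), the executioner of necroptosis, fell in the combination, and not by a called difference with decitabine. The controls were at 27.5, 31.5 and 29.9 CPM, the decitabine libraries at 31.0, 27.1 and 26.1 and the combination libraries at 21.1, 19.4 and 19.7. Decitabine overlapped the controls (log2 fold change -0.08, 95% interval -0.27 to 0.12). Every combination library lay below both other groups, with -0.56 against the controls (SE 0.092, adjusted p = 8.4e-05) and -0.48 against decitabine (SE 0.091, adjusted p = 0.0044). Dec_Sam replicate 3 did not stand apart for this gene, and both calls were kept in all 9 fits that left out 1 library.

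RIPK3, the kinase that activates MLKL, had 0 to 2 counts in every library, and was not tested. ZBP1, a sensor of left-handed nucleic acid that acts through RIPK3, had 4 counts over the controls, 179 over the decitabine libraries and 20 over the combination libraries, 18 of them in Dec_Sam replicate 3. It rose with decitabine (log2 fold change 5.14, SE 0.91, adjusted p = 0.00057) and was lower with the combination treatment (-3.10, SE 0.69, adjusted p = 0.016). That call was lost without Dec replicate 2 or Dec_Sam replicate 2 (adjusted p = 0.063 and 0.072), and without Dec_Sam replicate 3 the difference was -5.68 (adjusted p = 3.2e-05). The combination treatment against the controls was 2.03 (adjusted p = 0.18), 2.59 without Dec_Sam replicate 1 (adjusted p = 0.03) and -0.54 without Dec_Sam replicate 3 (adjusted p = 0.71). Of the 6 genes on the necroptosis list, 5 were tested. With decitabine 3 were called up and 1 down, against 36.3% and 32.5% of all genes tested. With the combination treatment 1 was called up and 2 down, against 35.9% and 31.3%. Between the treatments 3 were called down, against 8.02%.

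XAF1 (ENSG00000132530, chromosome 17 from 6755447 to 6775647 on the plus strand) had the largest relative increase after CASP1 and TNFSF10, from a basal level of 20 to 36 counts. It was at 1.14, 1.80 and 0.987 CPM in the controls, at 38.8, 36.1 and 37.4 with decitabine and at 3.004, 4.84 and 15.8 with the combination treatment. The groups did not overlap. The log2 fold change was 4.83 with decitabine (SE 0.69, adjusted p = 0.00073), a 28.5-fold increase, and 2.59 with the combination treatment (SE 0.75, adjusted p = 0.02). Between the treatments it was -2.25 (SE 0.54, adjusted p = 0.039). This last call was lost when any library but Dec_Sam replicate 3 was left out (-1.86 to -2.27, adjusted p = 0.061 to 0.14). Without Dec_Sam replicate 3 it was -3.25 (adjusted p = 3.7e-08) and the combination treatment against the controls 1.58 (adjusted p = 7.7e-05). Against the controls the call was lost without Ctrl replicate 1 (2.49, adjusted p = 0.066) or 3 (2.41, adjusted p = 0.068).

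XIAP, the protein that XAF1 antagonises, was at 45.6 to 65.3 CPM in all libraries and was not called in any comparison (log2 fold change 0.15 with decitabine, 95% interval -0.10 to 0.41). The list of inhibitors and their antagonists had 14 genes. Of these, 9 were called up and 3 down with decitabine, against 36.3% and 32.5% of all genes tested. With the combination treatment 6 were called up and 4 down, against 35.9% and 31.3%. Between the treatments 2 were called up and 3 down, against 7.67% and 8.02%. BIRC3 (cIAP2), a target of NF-kB, rose by 3.78 (SE 0.50, adjusted p = 0.00047) and 2.95 (SE 0.50, adjusted p = 0.0018), and TNFAIP3 (A20), another such target, by 3.21 and 3.10 (adjusted p = 0.00016 and 0.00021). BIRC3 was at -0.82 between the treatments (adjusted p = 0.23), and at -1.36 without Dec_Sam replicate 3 (adjusted p = 0.01). BIRC2 (cIAP1) rose by 0.60 and 0.38 (adjusted p = 2.3e-05 and 0.0012). RNF31 and RBCK1, subunits of the linear ubiquitin ligase that restrains death signalling at the TNF receptor, rose with decitabine (0.29 and 0.36, adjusted p = 0.0081 and 0.0027). They were lower in Dec_Sam than in Dec (-0.76 and -0.71, adjusted p = 0.00033 and 0.00053). Both were also called down in the combination against the controls (-0.46 and -0.35). With library size as the only scaling, RBCK1 lost that call (-0.13, adjusted p = 0.24). BIRC5 (survivin) fell with decitabine (-0.77, adjusted p = 9.4e-06) and was higher in Dec_Sam than in Dec (0.69, adjusted p = 0.001).

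Over all 65 genes of these pathways that are not among the 10, 54 were tested. With decitabine 33 were called up and 14 down, against 36.3% and 32.5% of all genes tested. With the combination treatment 24 were called up and 14 down, against 35.9% and 31.3%. Between the treatments 6 were called up and 13 down, against 7.67% and 8.02%. The median log2 fold changes of the 54 genes were 0.45, 0.23 and -0.10, against 0.03, 0.05 and 0.00 over all genes tested. With genes that had no count in the controls set to their bound, the medians were the same. The lower calls between the treatments included RIPK1, CASP10, CFLAR, RNF31, RBCK1, ZBP1, GSDMC, GSDMD, GSDME, AIM2, NLRP3 and CARD8, and the higher ones TNFRSF25, NGFR, TNFRSF10D, BID, BIRC5 and HTRA2, the last named after its values were seen. GSDMC lost its call without Ctrl replicate 1, any decitabine library, Dec_Sam replicate 1 or Dec_Sam replicate 2 (adjusted p = 0.054 to 0.17), and without Dec_Sam replicate 3 it was at -2.21 (adjusted p = 0.0093). NLRP3 lost it without Dec replicate 1 or 2 or Dec_Sam replicate 1 or 2 (adjusted p = 0.077 to 0.14), and CARD8 without Dec replicate 1 (0.063) or Dec_Sam replicate 2 (0.091). Receptors were found only among the higher calls, and caspases and gasdermins only among the lower ones, among these 65 genes and under this test.

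**Figure D3:**
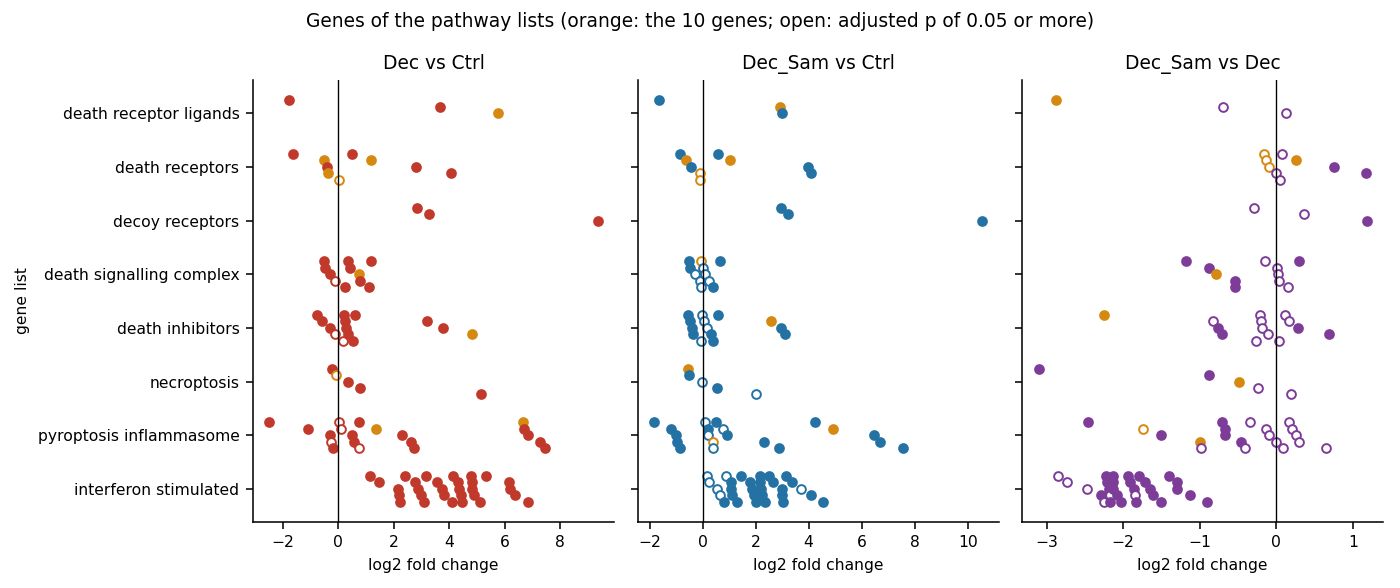
Log2 fold changes of the tested genes of 7 pathway lists and of 30 interferon-stimulated genes, 1 panel per comparison. Each point is a gene, orange points are among the 10 genes, and open points did not pass an adjusted p of 0.05. All 30 interferon-stimulated genes lie to the right of 0 with decitabine and to the left of 0 between the treatments, while the death receptors lie on both sides.

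The place of the combination libraries between the control mean (0%) and the decitabine mean (100%) differed by gene. For TNFSF10, Dec_Sam replicates 1, 2 and 3 lay at 2.96%, 2.67% and 30.3%. For XAF1 they lay at 4.69%, 9.77% and 40.0%, for CASP1 at 6.19%, 13.4% and 67.6% and for CASP4 at -4.53%, 4.94% and 55.4%. CASP8 lay at -12.0%, -19.9% and 17.9%. FAS was the exception, at 52.6%, 84.9% and 105.7%. Among the 6 upregulated genes FAS was thus the one whose combination libraries were nearest to decitabine in all 3 replicates.

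Dec_Sam replicate 3 was the combination library nearest to the decitabine mean for 9 of the 10 genes, for 30 of 30 interferon-stimulated genes and for 49.4% of all genes tested. For MLKL it was replicate 1. In Dec_Sam replicate 3, TNFSF10, CASP1, XAF1 and CASP4 and the summed interferon-stimulated genes were all between the other combination libraries and decitabine. Of the 30 interferon-stimulated genes, all 30 were called up with decitabine, 24 with the combination treatment, and 24 were called lower in Dec_Sam than in Dec. The shares over all genes tested were 36.3%, 35.9% and 8.02% in the same order. The part of the interferon response in the values of the 10 genes was not tested.

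**Figure D4:**
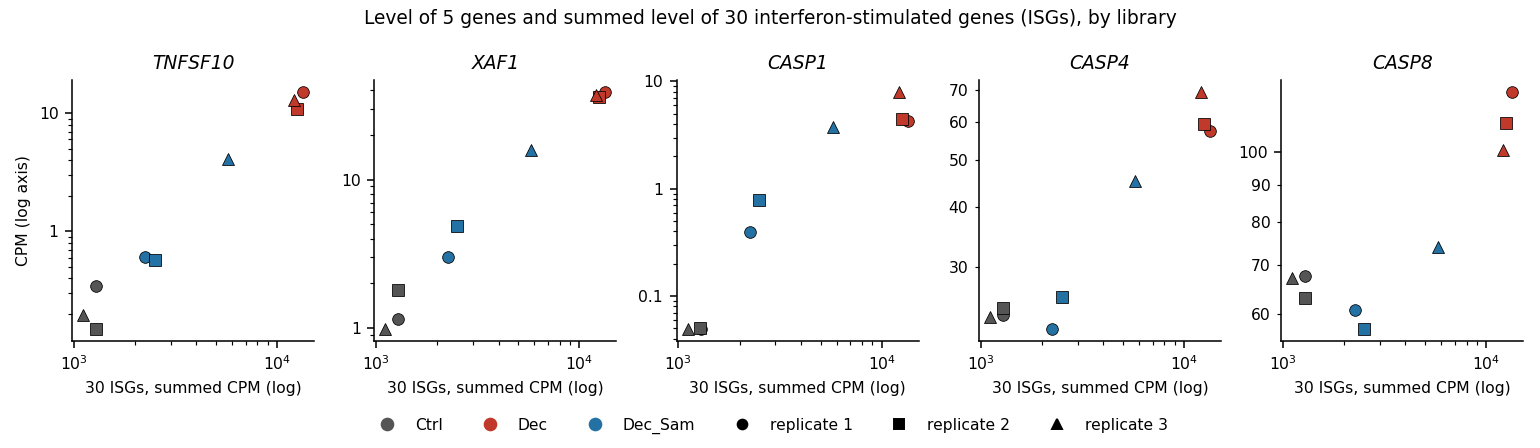
CPM of TNFSF10, XAF1, CASP1, CASP4 and CASP8 (vertical, log axis) against the summed CPM of 30 interferon-stimulated genes (horizontal, log axis), 1 point per library, with colours for groups and shapes for replicates. The horizontal values are 1111 to 1286 in the controls, 2250, 2500 and 5761 with the combination treatment and 12117 to 13411 with decitabine, and Dec_Sam replicate 3 lies between the other blue points and the red ones in each panel.

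For each of the 10 genes the genes nearest in pattern were taken by the root mean square difference of log2 CPM over the 9 libraries, each gene centred on its mean. XAF1 was nearest to OASL (0.213), OAS2 (0.246) and SAMD9L (0.269), and TNFSF10 to APOL1 (0.345), RTP4 (0.362) and OASL (0.409). CASP1 was nearest to GBP5 (0.374), TMEM140 (0.402) and IFI6 (0.417). By the same measure XAF1, TNFSF10 and CASP1 varied by 2.05, 2.34 and 2.30 about their own means. CASP4 had IL15RA (0.137) and NT5C3A (0.144) among its nearest, and CASP8 to N4BP1 (0.0713), NCSTN (0.0803) and IRF2 (0.0992). FAS was nearest to BCL9L, PLOD2 and SYNPO (0.0709 to 0.0823), TNFRSF1A to TECR, MANBAL and UBE2M, TNFRSF10B to MCFD2, CLIC4 and NPL, MLKL to SNX19, SHTN1 and ACSS2, and TNFRSF10A to RAB3GAP2, CBLL1 and PCNX4. TNFRSF10A itself varied by 0.0951 about its mean, against distances of 0.0474 to 0.0510 to these genes.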

How the data were processed

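Estimated counts per Ensembl gene in 9 libraries, as the authors deposited them, were analysed. Per the labels and the paper, reads from the BGISEQ-500 platform were trimmed with Trim Galore 0.6.4 and counted with kallisto against GRCh38.p13. The estimated counts are not normalized, carry decimals where reads were shared between genes, and were rounded here. The deposited log2 CPM values were not used. Symbols were matched through GENCODE release 44 for 60357 of 60617 genes. Groups, replicate numbers and day came from the labels, and doses from the paper. The sources used here disagree on the version of kallisto, so it is not given.

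After filterByExpr, 18532 genes entered the quasi-likelihood test of edgeR 4.0.16 (R 4.3.3; TMM, robust, 1 mean per group over all 9 libraries). Benjamini-Hochberg adjustment ran over all of them, and calls were made at 0.05. Standard errors are the log2 fold change over the root of the F statistic, and intervals are 95%. Ratios over 1 to 3 counts have exact binomial intervals, and a group without counts was set to 3 counts. These cover counting error only. Exact two-sided permutation tests of 3 against 3 libraries cannot go below p = 0.1, so none was run. Chi-square values per degree of freedom between replicates of 6.43 to 26.6 showed no copied library. The p-values measure the spread between these samples, which may be technical. The fit was tested on simulated counts with known changes, placed only in genes with higher control counts. That test did not cover genes with few control counts, such as TNFSF10 and CASP1, or a library that stands apart.

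The genes and lists were chosen with earlier results of these data known. Named outside the 10 genes were genes that share reads or a complex with them, up to 3 further called genes per list and comparison, and the 3 genes nearest in pattern to each. Some genes that this rule allows are given only in counts. Alternatives concerned the scaling (RLE, or library size alone), the tool (voom in limma 3.58.1, or DESeq2 1.42.0), the filter (none, or a mean count of 10 or more), the samples (each library left out in turn, or fits restricted to the 6 libraries of a comparison) and a block for replicate number. Dividing levels by the canonical transcript was added after the data were seen. Tables and plots were made in Python 3.11.15 with numpy 2.4.6, pandas 2.3.3, matplotlib 3.10.9 and scipy 1.17.1. Promoter windows came from RefSeq (GRCh38.p14). Some items are not reported here.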

Additional observations from a re-analysis of the deposited data

How the results depend on the processing

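With decitabine, 6 of the 10 genes were called up and 2 down in all 9 fits that left out 1 library, and only library size as the sole scaling changed the lower count, to 1. For the combination treatment against the controls, the 4 calls up became 2 without a filter and 2 with only the 6 libraries compared, where CASP1 did not pass the filter and was not tested, and lay between 1 and 5 when 1 library was left out. Between the treatments, the 1 higher call became 0 with RLE size factors, library size alone, only the 6 libraries compared and voom with limma, and 0 to 1 without single libraries. The 5 lower calls became 2 without a filter and 2 with only the 6 libraries compared, and 2 to 6 without single libraries. Of the other pathway genes, the 14 called down with decitabine became 7 with library size alone, and between the treatments the calls without single libraries were 3 to 8 up and 6 to 18 down. Values near 0 changed sign with library size alone for TNFRSF10A (0.14), TNFRSF1A (0.11) and CASP8 (0.18) with the combination treatment and for MLKL (0.17) and GSDME (0.044) with decitabine. They also did so without single libraries for TNFRSF10A with decitabine (-0.032 to 0.085), CASP8 with the combination treatment (-0.17 to 0.025) and ZBP1 with the combination treatment (-0.54 to 2.59). None of these was called under the setting that turned it. With the canonical transcript, an alternative chosen after seeing the data, the ranks in the controls were 3 for CASP8, 4 for CASP4, 5 for TNFRSF10A and 6 for MLKL. Same-numbered libraries of different groups correlated at -0.0165 to 0.233, too low in some pairs to treat the numbers as pairing the samples, although 7 of 9 libraries correlated best with one of their own number, a hint from the data and not from the design. With the replicate number as a block, 6 genes up and 2 down were called with decitabine, 3 and 2 with the combination treatment, where TNFSF10 was not called (2.80, adjusted p = 0.072), and 1 and 6 between the treatments, where CASP1 was called. Of the 10 genes' values under the alternatives, 445 kept their direction and call, 52 lost a call, 6 gained one and 6 changed sign. The cause of these changes was not tested. The single counts of TNFSF10 and CASP1 in the controls limit the precision of their fold changes.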
